A study of Mus musculus with 12 samples.

Results

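The natriuretic peptide system of the mouse left ventricle was followed through 8 genes: the ligands Nppa and Nppb, the receptors Npr1, Npr2 and Npr3, and the processing and degrading enzymes Corin, Furin and Mme. They were chosen by name, with earlier results of these data known, as were the gene and marker lists used below. All 8 had a row among the 29564 genes of the deposited table. They were also among the 14333 genes with enough counts to be tested. Poly(A) RNA came from left ventricles of 12 wild-type C57BL6 animals (C57BL/6J in the study's methods), in 3 groups of 4 with a library for each animal. Control-Veh mice were non-failing and received vehicle, a mixture of DMSO, PEG-300 and water. HFpEF-Veh mice modelled HFpEF (heart failure with preserved ejection fraction) through high-fat feeding together with L-NAME, which blocks nitric oxide synthase, and received the same vehicle. HFpEF-TYA-018 mice carried that model and were dosed orally at 15 mg/kg with TYA-018, which inhibits the deacetylase HDAC6. The series title and the published text describe 1 dose, with hearts taken within hours, whereas the treatment protocol in the labels describes daily dosing over weeks. The labels give neither age nor sex, while the study's methods describe male mice. Diet and L-NAME reached the whole animal. By animal number, Control-Veh libraries are called C1 to C4, those of HFpEF-Veh V1 to V4, and those of HFpEF-TYA-018 T1 to T4.

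Atrial natriuretic peptide (from Nppa) and B-type natriuretic peptide (from Nppb) are hormones of heart muscle. Both bind Npr1, a membrane guanylyl cyclase that makes cyclic GMP, and so lower blood pressure and promote loss of salt and water. Npr2 is the related cyclase that prefers the C-type peptide, and Npr3 lacks the cyclase and removes the peptides from the circulation. Corin, a serine protease on the surface of heart muscle cells, cleaves the atrial prohormone, Furin cleaves many prohormones including that of the B-type peptide, and Mme encodes neprilysin, which degrades the peptides. In adult ventricle, a rise of Nppa and Nppb is a widely used sign of wall stress.

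Libraries held between 61.2 and 83.9 M estimated counts, which gave between 229 and 14982 counts per library for each of the 8 genes. Values below are CPM, the counts relative to 1e06 counts of a library, after TMM scaling (which corrects library totals for composition), unless TPM, the corresponding value per transcript length, is named. The groups differed in composition. Mitochondrially encoded genes took 43.1% to 47.7% of counts in HFpEF-Veh and 35.4% to 41.3% in the other libraries, and globin genes took 0.420% to 1.32% in HFpEF-Veh and 0.154% to 0.341% elsewhere. Animal numbers of a group lay together, so cage, date or order of processing cannot be told apart from the group. In bulk tissue, fewer cells of a type and less RNA per cell cannot be told apart.

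Nppb and Nppa are neighbours on chromosome 4, with Nppb at chr4:147985788-147987205 and Nppa at chr4:148000722-148002079 (GRCm38, both on the plus strand and both protein-coding). Their starts are 14934 bases apart. The bases just upstream of Nppa are shown because the 2 genes, though adjacent, did not move together, and they are those of the RefSeq promoter table (GRCm38.p6). Capitals mark, from the far end, a T-box match on the minus strand (AGGTGTGA), a match to the NKE motif of Nkx2-5 (AAGTG preceded by T and any base), a GATA match (TGATAA) and a TATA match (TATAAA).
Nppa, chr4:148000472-148000721, plus strand: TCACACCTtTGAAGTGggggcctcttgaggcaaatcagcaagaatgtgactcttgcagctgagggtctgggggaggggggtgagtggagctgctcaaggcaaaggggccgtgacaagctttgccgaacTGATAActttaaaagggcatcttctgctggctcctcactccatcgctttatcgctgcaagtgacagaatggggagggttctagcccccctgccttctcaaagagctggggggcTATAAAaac
For Nppb, 2 windows of 30 bases are shown from the same table. They lie upstream of the RefSeq start at 147985900 but within the gene as GENCODE draws it, and their capitals mark an M-CAT match on the minus strand (CATTCC), 2 GATA matches and a TATA match.
Nppb, chr4:147985793-147985822, plus strand: caGGAATGcagcTGATAAatcagAGATAAc
Nppb, chr4:147985857-147985886, plus strand: actcagccccagTATAAAaggcagaggcac
Each of the 8 genes had at least 1 window in that table, and both strands of 32851 windows were searched. A GATA match (GATAA or GATAG preceded by A or T) was found in 26.5% of them, an M-CAT match in 12.6%, an NKE match in 10.1%, a TATA match in 12.4% and a T-box match in 1.12%. Nppa held no M-CAT match, and Nppb held neither the NKE nor the T-box match. Of the other 6 genes, Furin held an NKE and a TATA match, Mme held a GATA, an M-CAT and an AP-1 match (TGA and TCA with any base between them) in its 3 windows, and Npr1, Npr2, Npr3 and Corin held none of the motifs searched, which also included CArG and the cyclic AMP response element (TGACGTCA). A match is a description of letters, not a site of binding.

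The first comparison, of HFpEF-Veh with Control-Veh, asks what the model does to this system. Nppb rose 2.66-fold and Furin rose 1.36-fold, while Nppa fell 1.71-fold. The other 5 genes did not pass the test. Of the 8 genes, 3 were called (2 higher, 1 lower), beside 21.2% of all genes tested (10.9% higher and 10.3% lower). Over all genes these were 1561 higher and 1472 lower, while limma called 51 higher and 121 lower on log2(TPM + 1), and 93 and 208 on log2(TPM + 0.1). The groups did not overlap for 2 of the 8, Nppb and Furin, beside 23.5% of all genes (12% higher and 11.5% lower).

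Nppb was at 22.7, 36.6, 32.6 and 22.4 CPM in C1 to C4 and at 97.8, 45.5, 94.1 and 66.7 CPM in V1 to V4. Every HFpEF-Veh library lay above every Control-Veh library, and V2 was the lowest of its group. The means were 28.6 ± 7.13 and 76.0 ± 24.6 CPM (SD, n = 4), a log2 fold change of 1.41 (SE 0.296, adjusted p 0.00675 in edgeR). Leaving out any of the 8 libraries kept the call, with log2 fold changes between 1.27 and 1.6. On log2(TPM + 1), limma gave a log2 fold change of 1.18 with an adjusted p of 0.0541.

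Nppa was at 124, 242, 186 and 211 CPM in C1 to C4 and at 59.5, 145, 104 and 139 CPM in V1 to V4. The groups overlapped, since C1 lay below V2 and V4, and V1 was the lowest of all 12 libraries. The means were 191 ± 50.3 and 112 ± 39.2 CPM (SD, n = 4), a log2 fold change of -0.77 (SE 0.249, adjusted p 0.0458 in edgeR). This call was a marginal one. It was lost without C2, C3, C4, V1 or V3, with adjusted p in edgeR of 0.128, 0.0816, 0.107, 0.0664 and 0.105, and the log2 fold change was -0.56 without V1. It was also lost in 6 of 9 other settings, while the direction was the same in all of them, between -0.94 and -0.66.

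The 2 ligands were also set against each other within each heart. In TPM, Nppa was 4.06, 4.66, 4.35 and 7.20 times as abundant as Nppb in C1 to C4, and 0.514, 2.52, 0.802 and 1.52 times in V1 to V4. All HFpEF-Veh libraries lay below all others, and V1 and V3 held more Nppb than Nppa. Nppb made up 17.1% ± 3.38, 47.4% ± 16.7 and 18.1% ± 5.23 (SD, n = 4) of the TPM of both genes in the control, model and treated groups. The sum of both was 228 ± 43.9, 193 ± 26.6 and 199 ± 25.7 TPM, and these sums overlapped between the groups. With counts divided by the length of the longest annotated transcript in place of the deposited effective length, the ratio in V3 was 1.00 and that in V1 0.549, so the order of the groups was the same and only V1 held more Nppb. These ratios were given no test.

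**Figure D1:**
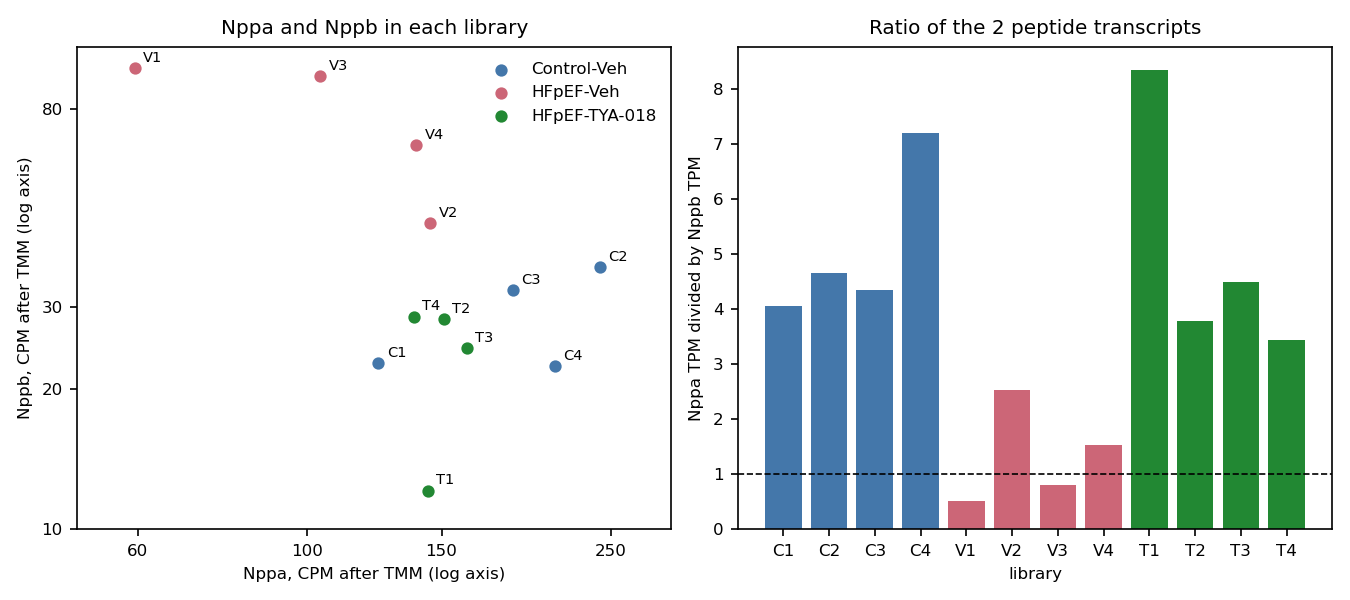
Left, Nppb against Nppa in each of the 12 libraries (CPM after TMM, log axes, coloured by group). Right, Nppa TPM divided by Nppb TPM per library, with a dashed line at 1. The HFpEF-Veh libraries lie at the top left, and their ratios (0.514 to 2.52) are below all 8 others (3.44 to 8.34).

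Other measures of the same libraries moved with the ligands. All 7 heart muscle markers, a list made with earlier results of these data known, had lower values in HFpEF-Veh. Of these, 5 were called lower, beside 10.3% of all genes called lower. Among them were the myosin heavy chain Myh6 (log2 fold change -0.84, adjusted p 0.00528 in edgeR) and troponin T, Tnnt2 (-0.49, adjusted p 0.00114 in edgeR). After TYA-018 all 7 had higher values than in HFpEF-Veh. Of these, 3 were called higher, Myh6 (0.90), Actn2 (0.28) and Myl3 (0.60), beside 8.93% of all genes called higher. The summed level of the 7 markers was 18600 to 24000 TPM in Control-Veh, 12200 to 14500 TPM in HFpEF-Veh and 14900 to 28000 TPM in HFpEF-TYA-018. Measured against the mean log2 CPM of these 7 markers in the same library, a reference chosen after seeing the data, Nppa was 0.31 lower in HFpEF-Veh on the log2 scale and Nppb 1.88 higher, with overlap between the groups for Nppa and none for Nppb. The reference itself was lower in HFpEF-Veh, so a gene of equal CPM stands higher against it. The other 6 genes were all higher in HFpEF-Veh on this measure, without overlap, by 0.36 (Corin) to 0.93 (Furin) on the log2 scale, and no test was made. The share of all genes without overlap on this measure was not computed for any comparison. After TYA-018 the reference was higher than in HFpEF-Veh, so a gene of equal CPM stands lower against it. On this measure Npr1, Npr2, Npr3, Corin and Furin were then lower than in HFpEF-Veh without overlap, from -0.37 (Npr2) to -0.62 (Corin). On CPM alone, the log2 fold changes of Npr1 and Npr2 were -0.0057 and 0.0036, neither of them called. Nppb (-2.09) was also lower without overlap, while Mme (-0.49) and Nppa (0.12) overlapped. Furin alone stayed apart from Control-Veh (0.35). V1, the library with the most Nppb and the least Nppa, also had the largest globin share (1.32%). The part of these measures in the changes of Nppa and Nppb was not tested.

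Atrial muscle makes far more Nppa than ventricle, so its markers were examined. Sarcolipin (Sln) reached at most 0.0373 TPM, Bmp10 at most 0.0316 TPM, the atrial light chain Myl7 at most 0.384 TPM and Dkk3 at most 0.134 TPM. Myl4 (1.45 to 3.12 TPM) and Stard10 (8.05 to 17.7 TPM) were detected in every library. The sum over the 6 markers was 14.5 to 21.3 TPM in Control-Veh, 9.67 to 11.6 TPM in HFpEF-Veh and 12.5 to 19.1 TPM in HFpEF-TYA-018, and most of it was Stard10, which was called lower in HFpEF-Veh (log2 fold change -0.45, adjusted p 0.0298 in edgeR). Sln, Bmp10, Myl7 and Dkk3 were thus at or near 0 in all 12 libraries, and Myl4 and Stard10 were not.

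The receptors were not called in any comparison. Npr1 (chr3:90450591-90465866) averaged 30.3 ± 2.79, 29.9 ± 0.887 and 29.7 ± 1.19 CPM (SD, n = 4) in the control, model and treated groups. Npr2 (chr4:43631935-43651244) averaged 57.5 ± 3.65, 57.7 ± 4.54 and 57.8 ± 3.13 CPM in the same order. For HFpEF-Veh against Control-Veh, the 95% interval of the log2 fold change ran from -0.16 to 0.12 for Npr1 and from -0.15 to 0.16 for Npr2. Other settings gave values outside these intervals, none of them called. With effective lengths as offset Npr1 was at -0.20 and Npr2 at 0.24, Npr1 was at -0.36 on log2(TPM + 1) and -0.41 on log2(TPM + 0.1), and Npr2 was at 0.25 on rescaled protein-coding TPM. Npr3, the clearance receptor (chr15:11839896-11907287), was at 18, 11.4, 15.1 and 13.6 CPM in C1 to C4, at 15.3, 15.4, 14.7 and 16.5 CPM in V1 to V4 and at 12.1, 11.9, 14.1 and 15.2 CPM in T1 to T4. Its groups overlapped, and the interval for the model was wider, from -0.18 to 0.37. In TPM, Npr3 stood at 0.0369 to 0.0663 of the sum of both cyclase receptors over all 12 libraries. The deposited effective length of Npr3 exceeded its longest annotated transcript in some libraries, so this share carries an uncertain length.

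Of the enzymes, Furin (chr7:80388585-80405436) was at 72.5, 63.4, 72.2 and 72.2 CPM in C1 to C4 and at 81.1, 88.9, 98.8 and 111 CPM in V1 to V4. The groups did not overlap, and C2 stood below its own group. The means were 70.1 ± 4.47 and 95.04 ± 13.1 CPM (SD, n = 4), a log2 fold change of 0.44 (SE 0.0882, adjusted p 0.0054 in edgeR), and the call held without each library in turn. It was lost where the deposited effective lengths entered the measure. With those lengths as an offset the log2 fold change was 0.45 (adjusted p 0.141 in edgeR), and on log2(TPM + 1) it was 0.15 (limma adjusted p 0.711). The effective length of Furin ranged from 9058 to 20223 bases between libraries, while its longest annotated transcript has 5736 bases. The TPM of Furin thus carries an uncertain length. In some libraries the effective length also exceeded the longest annotated transcript for Corin (up to 5730 bases against 4862), Npr3 (7438 against 6892) and Mme (8897 against 8039). Corin lengths were 4435 to 5126 bases in Control-Veh, 5400 to 5730 in HFpEF-Veh and 4220 to 5001 in HFpEF-TYA-018.

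Corin (chr5:72300025-72504473) was at 108, 117, 120 and 138 CPM in C1 to C4 and at 117, 99.2, 104 and 115 CPM in V1 to V4. The groups overlapped, and the log2 fold change of -0.15 did not pass the test (adjusted p 0.264 in edgeR). Its direction turned against the 7 muscle markers, as given above. Mme (chr3:63241537-63386030) had the lowest CPM of the 8, at 3.34 to 5.48 CPM in Control-Veh and 5.09 to 6.4 CPM in HFpEF-Veh, with a log2 fold change of 0.28 (95% interval -0.07 to 0.63, adjusted p 0.233 in edgeR).

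**Figure D2:**
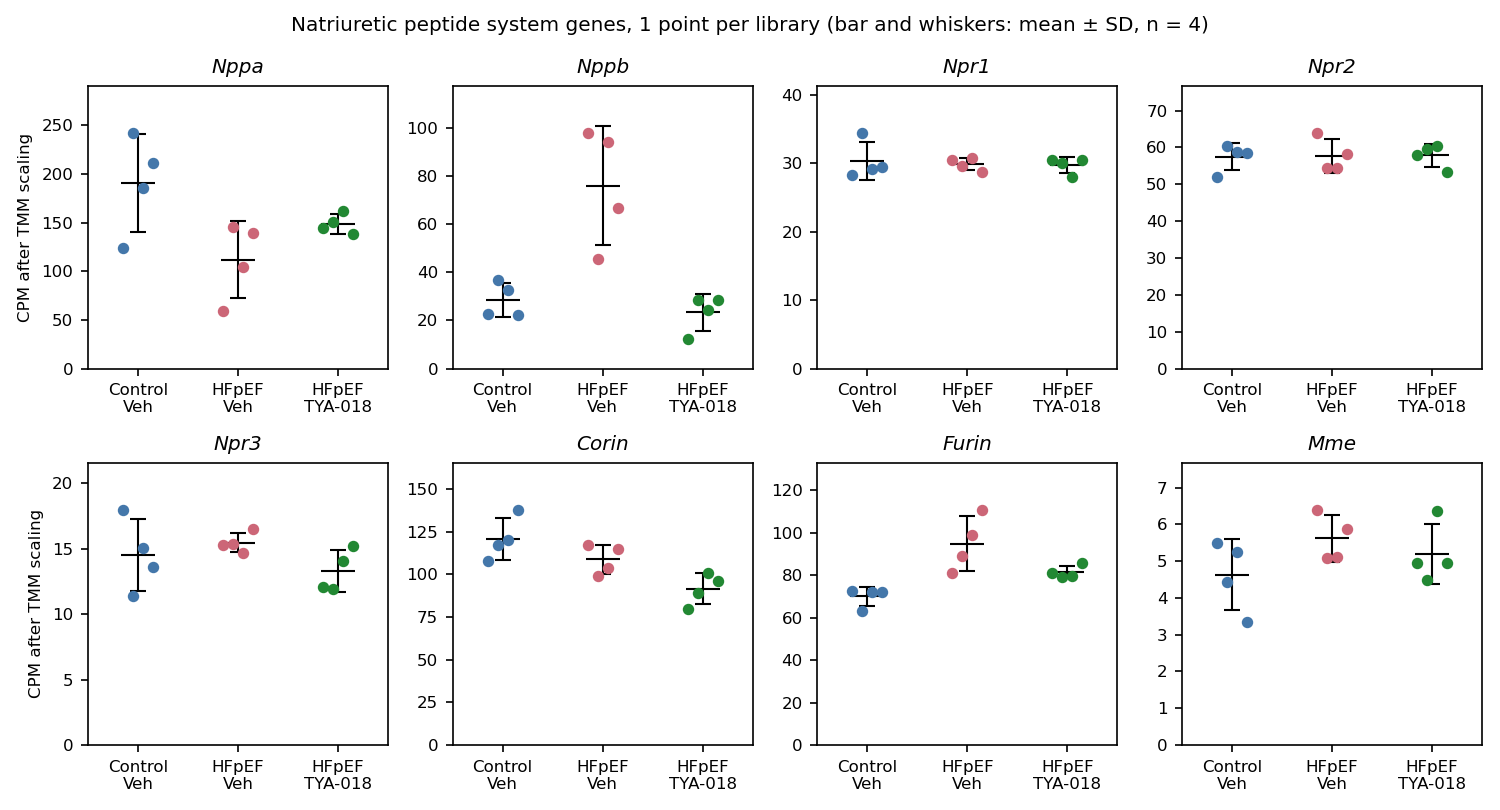
CPM after TMM of the 8 genes, 1 point per library, with mean and SD of each group (n = 4) and axes from 0. Nppb stands high in HFpEF-Veh (45.5 to 97.8) against 12.1 to 36.6 in the other groups, Furin is above Control-Veh in both HFpEF groups, Corin is lowest in HFpEF-TYA-018, and the receptors overlap between groups.

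The second comparison, of HFpEF-TYA-018 with HFpEF-Veh, asks what the inhibitor does in hearts with the model. Only Nppb of the 8 genes passed the test, and it fell 3.26-fold. That is 1 of 8 called (0 higher, 1 lower), beside 19.3% of all genes tested (8.93% higher and 10.4% lower). Over all genes these were 1280 higher and 1487 lower, while limma called 2228 higher and 68 lower on log2(TPM + 1), and 2548 and 70 on log2(TPM + 0.1), scales on which the median of all genes was shifted by 0.17 and 0.34. Nppb was also the only 1 of the 8 whose groups did not overlap, beside 25.1% of all genes (12% higher and 13.1% lower). This comparison shares the HFpEF-Veh libraries with the first one, so a high value in them raises one change and lowers the other.

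Nppb was at 12.1, 28.3, 24.5 and 28.6 CPM in T1 to T4, and every one lay below every HFpEF-Veh library. The mean was 23.4 ± 7.76 CPM (SD, n = 4), a log2 fold change of -1.70 (SE 0.299, adjusted p 0.00355 in edgeR). Without each library in turn it lay between -1.89 and -1.49 and stayed called, and it was called in all 9 other settings, between -1.78 and -1.31. T1, the lowest, was also the deepest library.

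Nppa was at 144, 151, 162 and 138 CPM in T1 to T4. These values lay close together (148 ± 10.5 CPM, SD, n = 4) and within the span of the HFpEF-Veh and Control-Veh libraries. The log2 fold change was 0.41 (SE 0.248, 95% interval -0.13 to 0.95, adjusted p 0.274 in edgeR). The ratio of Nppa to Nppb in TPM was 8.34, 3.78, 4.49 and 3.44 in T1 to T4, above every HFpEF-Veh library.

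Furin was at 81.3, 79.4, 79.9 and 85.7 CPM in T1 to T4, and V1 lay among these values. The log2 fold change was -0.22 (SE 0.0881, adjusted p 0.0992 in edgeR), and it was called without V1 (-0.29, adjusted p 0.0377 in edgeR). Corin was at 79.9, 89.1, 101 and 96.2 CPM, where only T3 lay above the lowest HFpEF-Veh library, V2. The log2 fold change was -0.25 (SE 0.092, adjusted p 0.0771 in edgeR), and DESeq2 called it (-0.25, adjusted p 0.0384). For both enzymes the sign turned on log2(TPM + 1). There Corin was 0.27 and Furin 0.30 higher in HFpEF-TYA-018, and the median of all genes was shifted by 0.17. That scale also carries the uncertain lengths of both enzymes. Npr1 and Npr2 had 95% intervals from -0.14 to 0.13 and from -0.15 to 0.15, Npr3 a log2 fold change of -0.22 (adjusted p 0.239 in edgeR) and Mme one of -0.11 (adjusted p 0.658 in edgeR). On that TPM scale Npr1, Npr3 and Mme also turned sign, with no call.

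**Figure D3:**
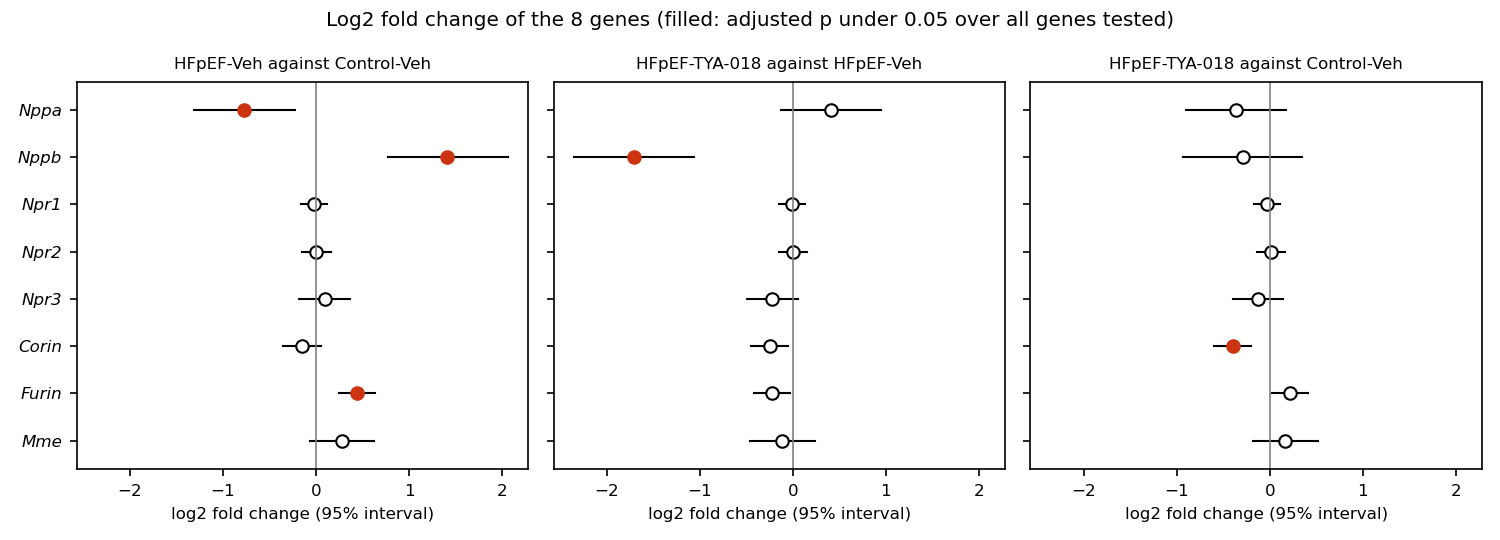
Log2 fold change of the 8 genes in the 3 comparisons, with 95% intervals from the edgeR fit. Filled points have an adjusted p under 0.05 over all genes tested: Nppa, Nppb and Furin on the left (-0.77, 1.41 and 0.44), Nppb in the middle (-1.70) and Corin on the right (-0.40).

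A last comparison set the treated hearts against non-failing ones. It shares the Control-Veh libraries with the first comparison and the treated libraries with the second. Corin alone was called, and it was 1.32-fold lower in HFpEF-TYA-018. That is 1 of 8 called (0 higher, 1 lower), beside 5.86% of all genes tested (3.12% higher and 2.74% lower). Over all genes these were 447 higher and 393 lower, against 7 and 4 on log2(TPM + 0.1) in limma. All 4 treated libraries lay below all 4 Control-Veh libraries in Corin (91.5 ± 9.01 against 120.6 ± 12.4 CPM, SD, n = 4, log2 fold change -0.40, SE 0.092, adjusted p 0.0289 in edgeR). The call was lost without C3, C4, T1 or T2 (adjusted p in edgeR 0.0594, 0.0831, 0.0721 and 0.0804) and in 5 of 9 other settings, always with the same sign. Against the 7 muscle markers, the difference was -0.27 on the log2 scale and the groups overlapped.

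Furin was higher in every treated library than in every Control-Veh library, and did not pass the test (log2 fold change 0.22, SE 0.0881, adjusted p 0.165 in edgeR). Nppb and Nppa overlapped with Control-Veh, with log2 fold changes of -0.29 (95% interval -0.93 to 0.35) and -0.36 (-0.90 to 0.18). A p above the threshold does not show that the levels were equal, and the intervals include sizeable differences on the lower side. Of the 8 genes, 2 had groups that did not overlap (Corin lower and Furin higher), beside 14.8% of all genes tested (7.76% higher and 7.05% lower).

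Levels between the 8 genes were compared only per length. The effective lengths behind TPM are uncertain for Furin, Corin, Npr3 and Mme, as given above. By mean TPM over the 12 libraries the order was Nppa (152), Nppb (54.8), Npr2 (9.31), Corin (7.55), Npr1 (7.18), Furin (2.13), Npr3 (0.824) and Mme (0.265). In TPM, Npr2, Corin and Npr1 did not separate, since their libraries spanned 6.5 to 14.2, 5.68 to 10.1 and 4.50 to 13.3 TPM. The ligands were far above their receptors, and Nppa was exceeded by 219 genes of the table on this scale. In Control-Veh alone, the TPM order was Nppa (189), Nppb (38.4), Corin (8.72), Npr2 (8.61), Npr1 (7.61), Furin (1.66), Npr3 (0.861) and Mme (0.238). With CPM per kb of the longest annotated transcript, the order in the same libraries was Nppa (220), Nppb (36.6), Corin (24.8), Npr2 (15.7), Furin (12.2), Npr1 (7.46), Npr3 (2.11) and Mme (0.575). Only Furin and Npr1 changed places between these orders in Control-Veh. Per kb, the Control-Veh libraries of Npr1 (6.96 to 8.47) lay below those of Npr2 (14.2 to 16.5) and Corin (22.2 to 28.3). Mme rested on 229 to 466 counts per library.

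Partners of the system, 15 genes in all, include the C-type ligand, Nppc, the protease that activates corin (Pcsk6), other peptidases, the cyclic GMP kinases and phosphodiesterases, and substrates of the kinase. Nppc (0 to 4 counts per library) and Ostn (0 to 13 counts), which encodes a ligand of the clearance receptor, were too low to be tested. Of the 13 tested in HFpEF-Veh against Control-Veh, 2 were called higher and 2 lower, beside 10.9% and 10.3% of all genes. The median log2 fold change was 0.08, beside -0.01 over all genes. Pcsk6 rose, from 40.5 to 53.4 CPM (log2 fold change 0.40, adjusted p 0.0461 in edgeR), and C1 (52.3 CPM) lay among the HFpEF-Veh libraries (47.6 to 59.2 CPM). Vasp, a cytoskeletal substrate of cyclic GMP kinase, rose without overlap (19.0 to 22.0 CPM in C1 to C4, 25.5 to 27.7 CPM in V1 to V4) with a log2 fold change of 0.40 and an adjusted p of 0.00234 in edgeR. Rgs2, a brake on G protein signalling that the kinase activates, fell (28.1 to 36.1 CPM in C1 to C4, 16.7 to 26.3 CPM in V1 to V4, log2 fold change -0.56, adjusted p 0.0328 in edgeR). Phospholamban (Pln), the regulator of the calcium pump, fell by 0.24 on the log2 scale (adjusted p 0.0497 in edgeR). Among the phosphodiesterases, which break down cyclic GMP, none was called. Pde5a had a log2 fold change of 0.17 (adjusted p 0.552 in edgeR) and Pde2a one of 0.78 with an SE of 0.514 (adjusted p 0.299 in edgeR).

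After TYA-018, 2 of these 13 were called, both higher than in HFpEF-Veh, beside 8.93% of all genes called higher and 10.4% lower. They were Pln (0.29, adjusted p 0.0255 in edgeR) and insulin-degrading enzyme, Ide, which also cleaves natriuretic peptides (0.17, adjusted p 0.0431 in edgeR). Pcsk6 had a value of 43.1, 38.4, 43.6 and 45.2 CPM in T1 to T4 and was not called, although every value lay below HFpEF-Veh. Pde5a was lower in all 4 treated libraries than in all HFpEF-Veh libraries and missed the threshold (-0.51, adjusted p 0.0757 in edgeR). Against Control-Veh, Vasp alone was called (0.26, adjusted p 0.0454 in edgeR).

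Transcription factors known to act on Nppa and Nppb formed a second list of 14, all tested. In HFpEF-Veh against Control-Veh, 1 of 14 was called (higher), beside 10.9% of all genes called higher and 10.3% lower, and the median log2 fold change was -0.02. The gene called was Srf, serum response factor, at 27.1 to 32.5 CPM in Control-Veh and 34.5 to 48.9 CPM in HFpEF-Veh (0.54, adjusted p 0.00291 in edgeR). In HFpEF-TYA-018 against HFpEF-Veh, 3 of 14 were called, all higher, beside 8.93% of all genes called higher and 19.3% called in either direction. These were Gata4 (0.25, adjusted p 0.0216 in edgeR), Nkx2-5 (0.30, adjusted p 0.0212 in edgeR) and the Srf partner Myocd (0.52, adjusted p 0.0281 in edgeR). The groups did not overlap for 3 of the 14, the same genes and all higher. This stands beside 12% of all genes higher without overlap and 25.1% without overlap in either direction. Srf was still called against Control-Veh after the dose (0.42, adjusted p 0.0288 in edgeR), at 36.3 to 40.0 CPM. Nppb was not called there (95% interval -0.93 to 0.35), and a difference between the 2 genes was not tested.

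**Figure D4:**
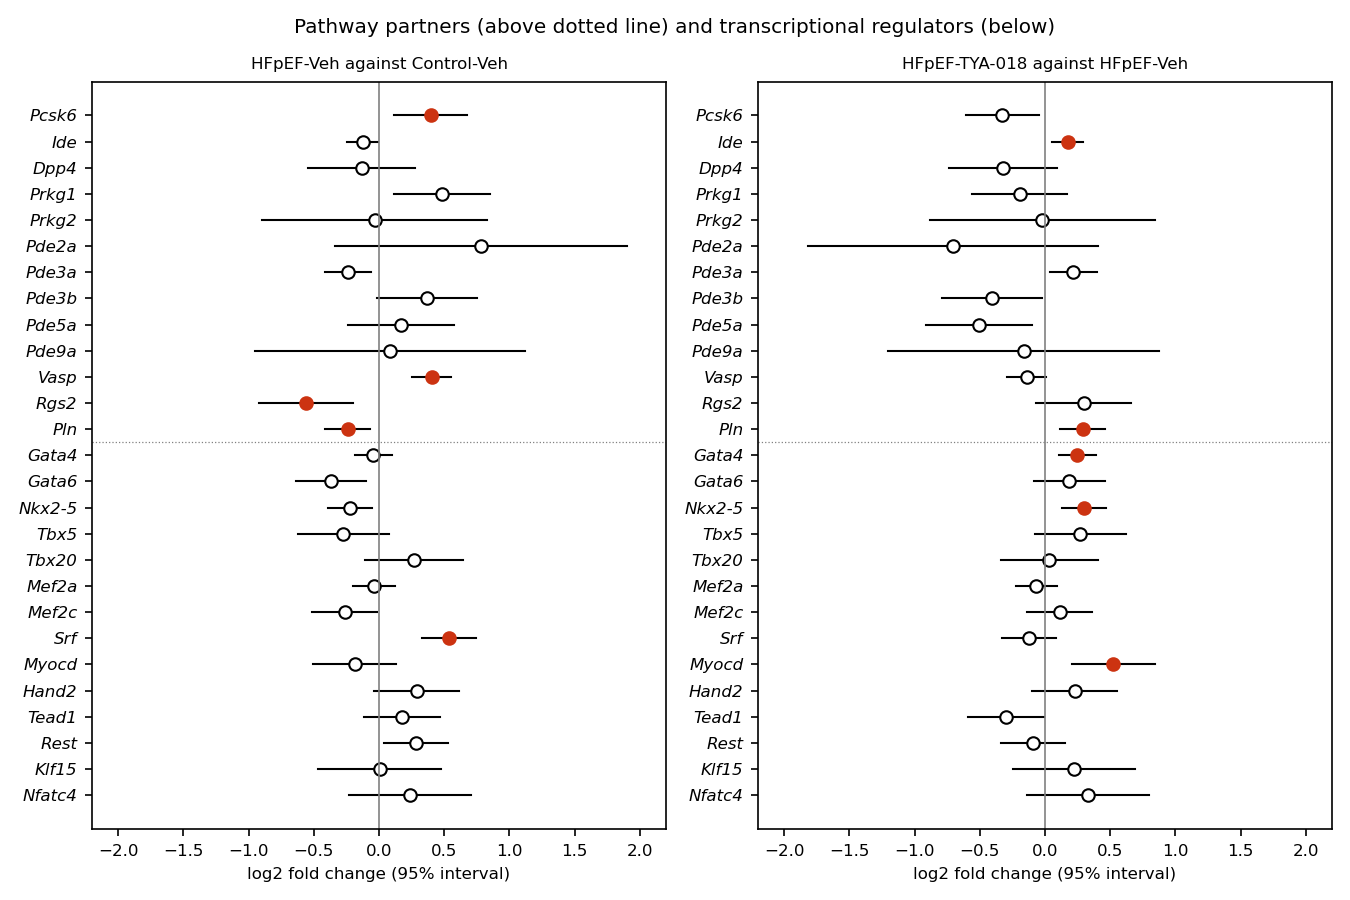
Log2 fold change with 95% interval of the 13 tested partner genes (above the dotted line) and of the 14 transcription factors (below), for HFpEF-Veh against Control-Veh (left) and HFpEF-TYA-018 against HFpEF-Veh (right). Filled points were called: Pcsk6, Vasp, Rgs2, Pln and Srf on the left, and Ide, Pln, Gata4, Nkx2-5 and Myocd on the right.

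Nppb is usually read beside other genes of cardiac stress, so 14 such genes were examined. In HFpEF-Veh, 5 were called higher and 1 lower, beside 10.9% and 10.3% of all genes. The list was made with earlier results of these data known. Gdf15, a secreted stress hormone, rose (0.529 to 0.953 CPM in C1 to C4, 1.6 to 4.92 CPM in V1 to V4, log2 fold change 2.59, adjusted p 0.0016 in edgeR). Skeletal actin, Acta1, rose with overlap (1.06, adjusted p 0.0426 in edgeR), and the actin-binding gene Abra (0.70), the cytokine receptor Tnfrsf12a (0.68) and Fhl1 (0.33) rose as well. The fetal myosin Myh7 was at 125 to 206 CPM in Control-Veh and 68.9 to 278 CPM in HFpEF-Veh and was not called (0.17, adjusted p 0.755 in edgeR). The range of Ankrd1 was so wide (SE 1.87 on the log2 scale) that no change could be seen. The intermediate filament gene Des fell (-0.28, adjusted p 0.0187 in edgeR). After TYA-018, Des was higher (0.27) and Ctgf, the matricellular gene also called Ccn2, lower (-0.57, adjusted p 0.0117 in edgeR) than in HFpEF-Veh. Gdf15 was called against Control-Veh after the dose (1.69, adjusted p 0.0303 in edgeR). Nppb was not, and a difference between Gdf15 and Nppb was not tested.

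Some cell markers other than those of muscle also moved with Nppb. The counts below stand beside 10.9% of all genes called higher and 10.3% lower in HFpEF-Veh, and 8.93% higher and 10.4% lower after TYA-018. These lists too were made with earlier results of these data known. Of 5 endothelial markers, 3 were called higher in HFpEF-Veh and 3 lower after TYA-018, among them Pecam1 (0.52 and -0.58) and Cdh5 (0.44 and -0.46). Of 5 fibroblast markers, 2 were called higher and 3 lower, and Col1a1 was called in both (0.99 and -0.50). Of 4 macrophage markers, 3 were called higher and 1 lower, and of 8 smooth muscle and pericyte markers Rgs5 alone was called in each (0.34 and -0.44). The endocardial gene Plvap (-0.47) and the neutrophil gene S100a9 (-1.63) were called lower in HFpEF-Veh, and no marker of those lists after TYA-018. All 5 red cell genes were called higher in HFpEF-Veh (1.84 to 2.38) and all 5 lower after TYA-018 (-1.82 to -1.34). In summed TPM, endothelial markers ran from 57.2 to 74.1 in Control-Veh, 60.7 to 77.1 in HFpEF-Veh and 67.1 to 95.3 in HFpEF-TYA-018, and fibroblast markers from 107 to 160, 110 to 170 and 100 to 127. Their part in the change of Nppb was not tested.

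The genes around the pair were looked at next, since Nppb and Nppa lie 13517 bases apart. Within 200000 bases, 13 other genes were tested. Clcn6, a chloride transporter gene 2180 bases from Nppa, was not called in any comparison (-0.20, adjusted p 0.215 in edgeR in the first). Plod1, a collagen lysyl hydroxylase gene 49021 bases from Nppb, moved in the direction of Nppb, at 61.1 to 64.6 CPM in C1 to C4, 80.8 to 85.4 CPM in V1 to V4 and 68.2 to 72.4 CPM in T1 to T4. It changed by 0.40 and -0.23 on the log2 scale in the first and second comparison, with adjusted p in edgeR of 0.000441 and 0.00539. Also called in the first comparison were 2510039O18Rik (0.28), Miip (-0.45) and Fbxo44 (-0.42), and Fbxo44 was higher after the dose (0.45, adjusted p 0.0131 in edgeR). These calls stand beside 21.2% of all genes tested in the first comparison and 19.3% in the second. In HFpEF-TYA-018 against Control-Veh, 2510039O18Rik (0.33, adjusted p 0.0252 in edgeR) and Plod1 (0.17, adjusted p 0.0498 in edgeR) were called higher, beside 5.86% of all genes. No neighbour changed as far as Nppb. An antisense gene, Gm13054, overlaps Nppa in the annotation and was not analysed here, and the library kit marks strand by the study's methods. Whether the counting used strand is not given in the sources used here, so it is uncertain whether reads of that pair were kept apart.

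**Figure D5:**
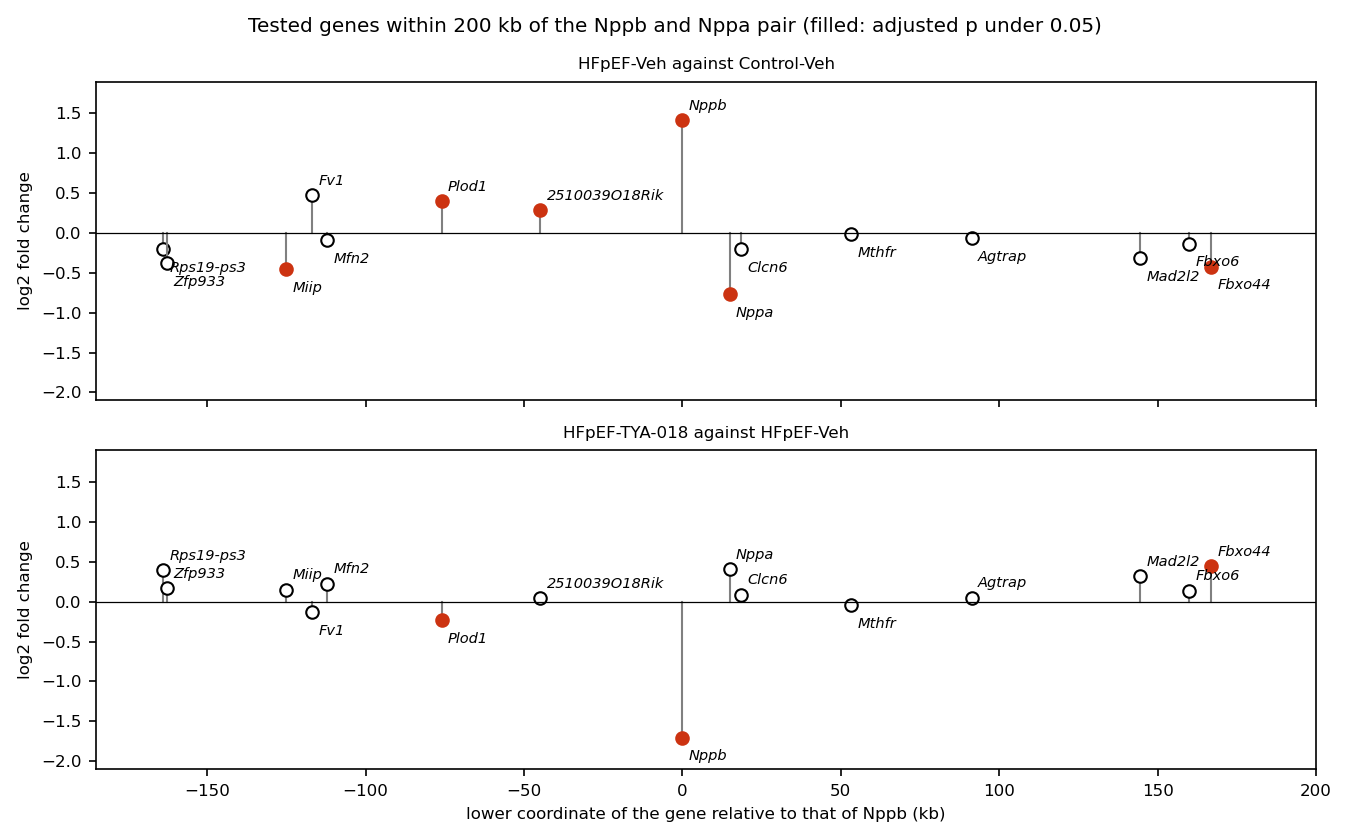
Log2 fold change of the genes tested within 200000 bases of the pair, against the distance of their lower coordinate from that of Nppb (kb), for both comparisons that involve HFpEF-Veh. Filled points were called. Nppb rises to 1.41 and falls to -1.70 while its neighbour Nppa shows -0.77 and 0.41.

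Across the 12 libraries, the pattern of Nppb was most like that of Ptbp1, a splicing regulator (Pearson's r 0.942, and 0.759 after centring within groups), followed by Gnb1 (0.926), Actn4 (0.922), Cyp4b1 (0.921) and Smap1 (0.918). Nppa was most like Mt3 (0.949, at no more than 0.711 CPM), Gadd45gip1 (0.916), Dcxr (0.908), Mknk2 (0.905, and 0.965 after centring) and the glycolytic gene Gapdh (0.900). Neither ligand was among the likest genes of the other, and their own r was -0.57, or -0.23 after centring. Furin was most like Inafm2 (0.959) and Spdl1 (0.949), Npr3 was most like Zfr (0.934), Npr1 like Alg12 (0.838), Npr2 like Prr33 (0.848) and Mme like Lsamp (0.890). These are descriptions over libraries that share group and composition, and the highest of 14333 values is high by selection.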

How the data were processed

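The authors trimmed reads with fastp, quantified them with salmon against GENCODE transcripts of GRCm38 and summed them to genes with tximport, per the published methods. The submitters' processing notes name Salmon 1.6.0 and list a human build, which is at odds with mouse libraries. Labels and methods also differ in read length and layout. The deposited files hold estimated counts (not normalised, 74.4% to 77.6% whole), deposited TPM and, as another kind of value, deposited effective lengths in bases.

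All columns of values were used (0 left out). Estimated counts were rounded and fitted with edgeR 4.0.16 in R 4.3.3 (filterByExpr, TMM, 1 quasi-likelihood model of 12 libraries, 9 residual degrees of freedom). Each of 3 comparisons was a two-sided F test, with Benjamini-Hochberg adjustment over the 14333 genes and a threshold of 0.05. The common biological coefficient of variation was 0.232. Pearson's r between libraries of a group was 0.948 to 0.970. Nothing but the animal numbers says that libraries are separate mice. The fit was also run on simulated counts, with the same coefficient of variation for all genes and without the differences in mitochondrial and globin share seen here. That run cannot show how the fit behaves with the composition of these libraries.

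The 8 genes are all reported, with every called gene of the lists and up to 4 others per list, and up to 3 genes (5 for the ligands) of highest r of log2 CPM (prior count 2), of which that for Corin is not reported here. The members and lists were chosen with earlier results of these data known. Ccn2 and Ccn1 were found as Ctgf and Cyr61. Transcript lengths and gene positions are from a GENCODE annotation of GRCm38 and promoter bases from RefSeq. Rows named as spreadsheet dates (19) were kept. Alternatives were relative log expression scaling, DESeq2 1.42.0, no filter, effective lengths as offset, limma 3.58.1 on log2(TPM + 1) and log2(TPM + 0.1), rescaled protein-coding TPM, leaving out mitochondrially encoded genes, 8 libraries alone and leaving out each library. They were examined for the 8 genes and for the numbers of genes called, not for other single genes.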

Additional observations from a re-analysis of the deposited data

Results flagged for a closer look

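Furin in Control-Veh held 1 library that stood apart. C2 was at 63.4 CPM, against 72.2 to 72.5 CPM in C1, C3 and C4, a gap of 0.97 of the range of the group. Of 24 sets of 4 libraries examined (8 genes in 3 groups), it was the only one past the limit used to flag a library. That limit is lower than 0.97, and chance passes it in about 1 in 20 sets. Furin remained called in HFpEF-Veh against Control-Veh without C2.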

How the results depend on the processing

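No paired analysis was possible because each group has its own animal numbers. Nppb in HFpEF-TYA-018 against HFpEF-Veh kept its direction and call in all 9 alternatives and all 8 fits without a library.

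The number of genes called in HFpEF-Veh against Control-Veh (3033) was 1445 with effective lengths as offset, 172 on log2(TPM + 1), 301 on log2(TPM + 0.1) and 1052 on rescaled protein-coding TPM, and 1986 to 3992 without 1 library. Of the 8 genes, 3 were called, and 1, 0, 1 and 1 under those settings, or 2 to 3 without 1 library. In HFpEF-TYA-018 against HFpEF-Veh 2767 became 1217 with the offset and 739 on rescaled TPM, and 1485 to 2729 without 1 library, and members called (1) became 2 with DESeq2 and 1 to 2 without 1 library. In HFpEF-TYA-018 against Control-Veh 840 became 1514 with DESeq2, 203 with the offset, 9 and 11 on the TPM scales, and 97 on rescaled TPM, and 308 to 809 without 1 library. Members called (1) became 0 with the offset, on all 3 TPM scales and with 8 libraries alone, and 0 to 1 without 1 library.

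Signs turned only for values not called in the main fit, although Corin (with DESeq2) and Furin (without V1) were called in HFpEF-TYA-018 against HFpEF-Veh. In HFpEF-Veh against Control-Veh the values that turned were Npr3 (-0.0036 offset, -0.0979 and -0.19 on TPM + 1 and TPM + 0.1) and Npr2 (-0.00842 and -0.0138). In HFpEF-TYA-018 against HFpEF-Veh they were Npr1 (0.0219 offset, 0.395 and 0.445), Npr2 (-0.204 offset, -0.181 rescaled), Npr3 (0.111 and 0.221), Corin (0.27 and 0.303), Furin (0.295 and 0.399) and Mme (0.0755 and 0.23). In HFpEF-TYA-018 against Control-Veh they were Npr1 (0.0388 and 0.0386) and Npr3 (0.0135 and 0.0305). Without 1 library, Npr1 ran from -0.0535 to 0.0461, -0.0242 to 0.0223 and -0.0593 to 0.0404 in the 3 comparisons, Npr2 from -0.0443 to 0.0362, -0.0243 to 0.0563 and -0.0346 to 0.049, and Npr3 from -0.00447 to 0.215 in the first. The cause was not tested. All genes shifted by a median of 0.17 and 0.34 on the TPM scales in HFpEF-TYA-018 against HFpEF-Veh.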
